A study of Mus musculus with 167 samples.

Results

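The 7 genes described here encode the core proteins of classical non-homologous end joining in the mouse. They are Xrcc6 and Xrcc5 (the Ku70 and Ku80 subunits), Prkdc (the catalytic subunit of the DNA-dependent protein kinase), Dclre1c (Artemis), Lig4 (DNA ligase IV), Xrcc4 and Nhej1 (also called XLF). They are listed by name, and no threshold on a measured value enters the rule. All 7 had a value in each of the 44 RNA-seq libraries, out of 24643 gene entries present in every library.

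The study asked how the transcription factor Pax5, through the cohesin-release factor Wapl, shapes recombination of V genes at the immunoglobulin heavy-chain locus Igh. RNA was measured in C57BL/6 B-lineage cells that were sorted by flow cytometry from bone marrow, apart from cultured pro-B cells, which had been expanded in vitro for 3 days. The pro-B groups were Eed(F/F) Rag1-cre (n = 5), set against Eed(F/+) Rag1-cre (n = 3) and Eed(F/F) without Cre (n = 1). Here Cre is driven by Rag1, which is active in early lymphoid cells, and acts on the floxed alleles of the Polycomb gene Eed. Labels of other samples in the series write Rag1(Cre/+), with Cre as an allele of Rag1. Rag1 RNA in libraries with and without Cre may therefore not be comparable. Pax5(-/-) progenitors (n = 2) were set against Pax5(+/+) pro-B cells (n = 3). Wapl(deltaP1,2/deltaP1,2) cells, called deltaP1,2 below, carry deletions labelled P1,2 at both Wapl alleles. They were set against Wapl(+/+) cells as cultured pro-B cells (n = 3 against 2), sorted pro-B cells (n = 2 each) and sorted pre-B cells (n = 2 each).

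The remaining libraries were immature B cells with altered Igh alleles. Igh(890-inv/+) cells (n = 2) were set against Igh(+/+) cells (n = 2), and Igh(CBE/+) and Igh(CBE-inv/+) cells (n = 2 each) against a second set of Igh(+/+) cells (n = 3). Igh(V8-8/delta890) and Igh(V8-8-inv/delta890) cells (n = 2 each) were set against Igh(+/delta890) cells (n = 2), so that the delta890 allele is shared by all 3 of these groups. The labels do not say whether libraries of a group came from separate animals, so the p-values below measure the spread between libraries, which may be technical. As a check of stage, summed immature B markers were 14303 to 21038 TPM in the immature B libraries, against at most 1471 TPM in any other library, and Rag1 was 5.41 to 17.9 TPM in immature B cells, against at least 35.3 TPM elsewhere. In bulk RNA, fewer cells of a type and less RNA per cell cannot be told apart.

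Non-homologous end joining rejoins broken DNA without a template. The Ku heterodimer binds the ends and recruits the DNA-dependent protein kinase, Artemis opens hairpins and trims ends, and DNA ligase IV seals them on a scaffold of Xrcc4 with help from Nhej1. In developing lymphocytes this machinery completes V(D)J recombination: the Rag1 and Rag2 recombinase cuts at Igh in pro-B cells and at the light-chain loci in pre-B cells, leaving hairpin ends that Artemis must open.

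Promoter sequences are shown for 4 of the 7 genes, Xrcc6, Xrcc5, Dclre1c and Lig4. Those of Xrcc4 and Nhej1 are described below but not shown. Of the 7 genes, 6 (all but Prkdc) matched the RefSeq promoter table for GRCm38.p6, and each sequence is the 250 bases before a start site, read 5′ to 3′ on the gene's strand. Lig4 has 2 annotated starts. Capitals mark matches, on either strand, to 3 motifs: CAGCTG (an E-box, its own reverse complement), CCGGAAG (an ETS-type motif, written CTTCCGG when on the other strand) and TGCGCA (NRF1-like, its own reverse complement).
Xrcc6 promoter, chr15:82016119-82016368, plus strand: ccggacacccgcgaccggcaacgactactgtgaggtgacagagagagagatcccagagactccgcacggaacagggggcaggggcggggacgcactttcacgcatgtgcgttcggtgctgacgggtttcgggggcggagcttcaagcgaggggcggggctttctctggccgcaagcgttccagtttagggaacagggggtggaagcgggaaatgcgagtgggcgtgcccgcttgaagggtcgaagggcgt
Xrcc5 promoter, chr1:72307171-72307420, plus strand: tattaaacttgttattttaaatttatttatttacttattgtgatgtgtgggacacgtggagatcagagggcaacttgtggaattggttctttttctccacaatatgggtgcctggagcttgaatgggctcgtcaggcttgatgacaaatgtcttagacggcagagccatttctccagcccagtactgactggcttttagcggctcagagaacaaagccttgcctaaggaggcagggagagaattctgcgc
Dclre1c promoter, chr2:3423881-3424130, plus strand: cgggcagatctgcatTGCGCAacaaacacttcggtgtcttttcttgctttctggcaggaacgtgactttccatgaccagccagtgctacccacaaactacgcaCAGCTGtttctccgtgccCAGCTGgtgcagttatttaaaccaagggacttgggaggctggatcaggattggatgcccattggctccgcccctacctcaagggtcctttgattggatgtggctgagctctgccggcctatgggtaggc
Lig4 promoter, outer start, chr8:9977681-9977930, minus strand: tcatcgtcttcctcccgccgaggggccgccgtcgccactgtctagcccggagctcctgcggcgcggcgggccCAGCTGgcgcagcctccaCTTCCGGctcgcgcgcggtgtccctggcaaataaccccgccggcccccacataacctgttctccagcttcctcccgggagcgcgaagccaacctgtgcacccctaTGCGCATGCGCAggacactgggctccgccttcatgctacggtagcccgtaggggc
Lig4 promoter, inner start, chr8:9976312-9976561, minus strand: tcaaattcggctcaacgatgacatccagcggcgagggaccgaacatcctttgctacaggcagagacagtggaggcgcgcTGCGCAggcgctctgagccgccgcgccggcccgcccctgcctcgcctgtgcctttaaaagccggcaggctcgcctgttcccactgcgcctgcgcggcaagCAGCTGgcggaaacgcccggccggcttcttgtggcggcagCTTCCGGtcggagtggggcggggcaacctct

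The Dclre1c promoter held 2 CAGCTG and 1 TGCGCA match. Each Lig4 start had 1 CAGCTG and 1 CCGGAAG match, with 2 TGCGCA matches before the outer start, sharing no base with the other motifs, and 1 before the inner start. No match to these letters occurred in the windows of Xrcc6, Xrcc5 or Nhej1, while Xrcc4 had 2 CCGGAAG matches. Of the 32851 mouse promoters of the same length, 13.001% held CAGCTG, 6.91% held CCGGAAG and 6.43% held TGCGCA.

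Levels are given in TPM, the authors' unit, which is scaled to gene length and to a fixed total per library so that genes can be compared within a library. Xrcc6 was the most abundant of the 7 in 44 of 44 libraries, with a lowest value of 59.3, a median of 145 and a highest value of 701 TPM. Its Ku partner Xrcc5 was far lower, at 6.22 to 48.7 TPM with a median of 15.1 TPM. Lig4 spanned 9.19 to 65.2 TPM (median 20.0 TPM) and was the second most abundant in 27 libraries, while Xrcc5 was second in 12 and Nhej1 in 5.

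Nhej1 had about the median level of Xrcc5, at 15.3 TPM, and Prkdc, Dclre1c and Xrcc4 had medians of 6.71, 6.82 and 7.28 TPM. Nhej1 spanned 9.44 to 23.8 TPM and Prkdc 4.84 to 11.7 TPM, so that their highest library exceeded their lowest by 2.52-fold and 2.43-fold. Xrcc4 spanned 3.39 to 13.3 TPM. Dclre1c ranged more widely, from 1.77 to 17.3 TPM, a 9.76-fold spread next to 11.8-fold for Xrcc6, 7.84-fold for Xrcc5 and 7.09-fold for Lig4. The lowest of the 7 was Dclre1c in 19 libraries, Xrcc4 in 13 and Prkdc in 12. Among all genes at 1 TPM or more in a library, Xrcc6 sat at a median percentile of 88.9 and Prkdc at 23.8.

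**Figure D1:**
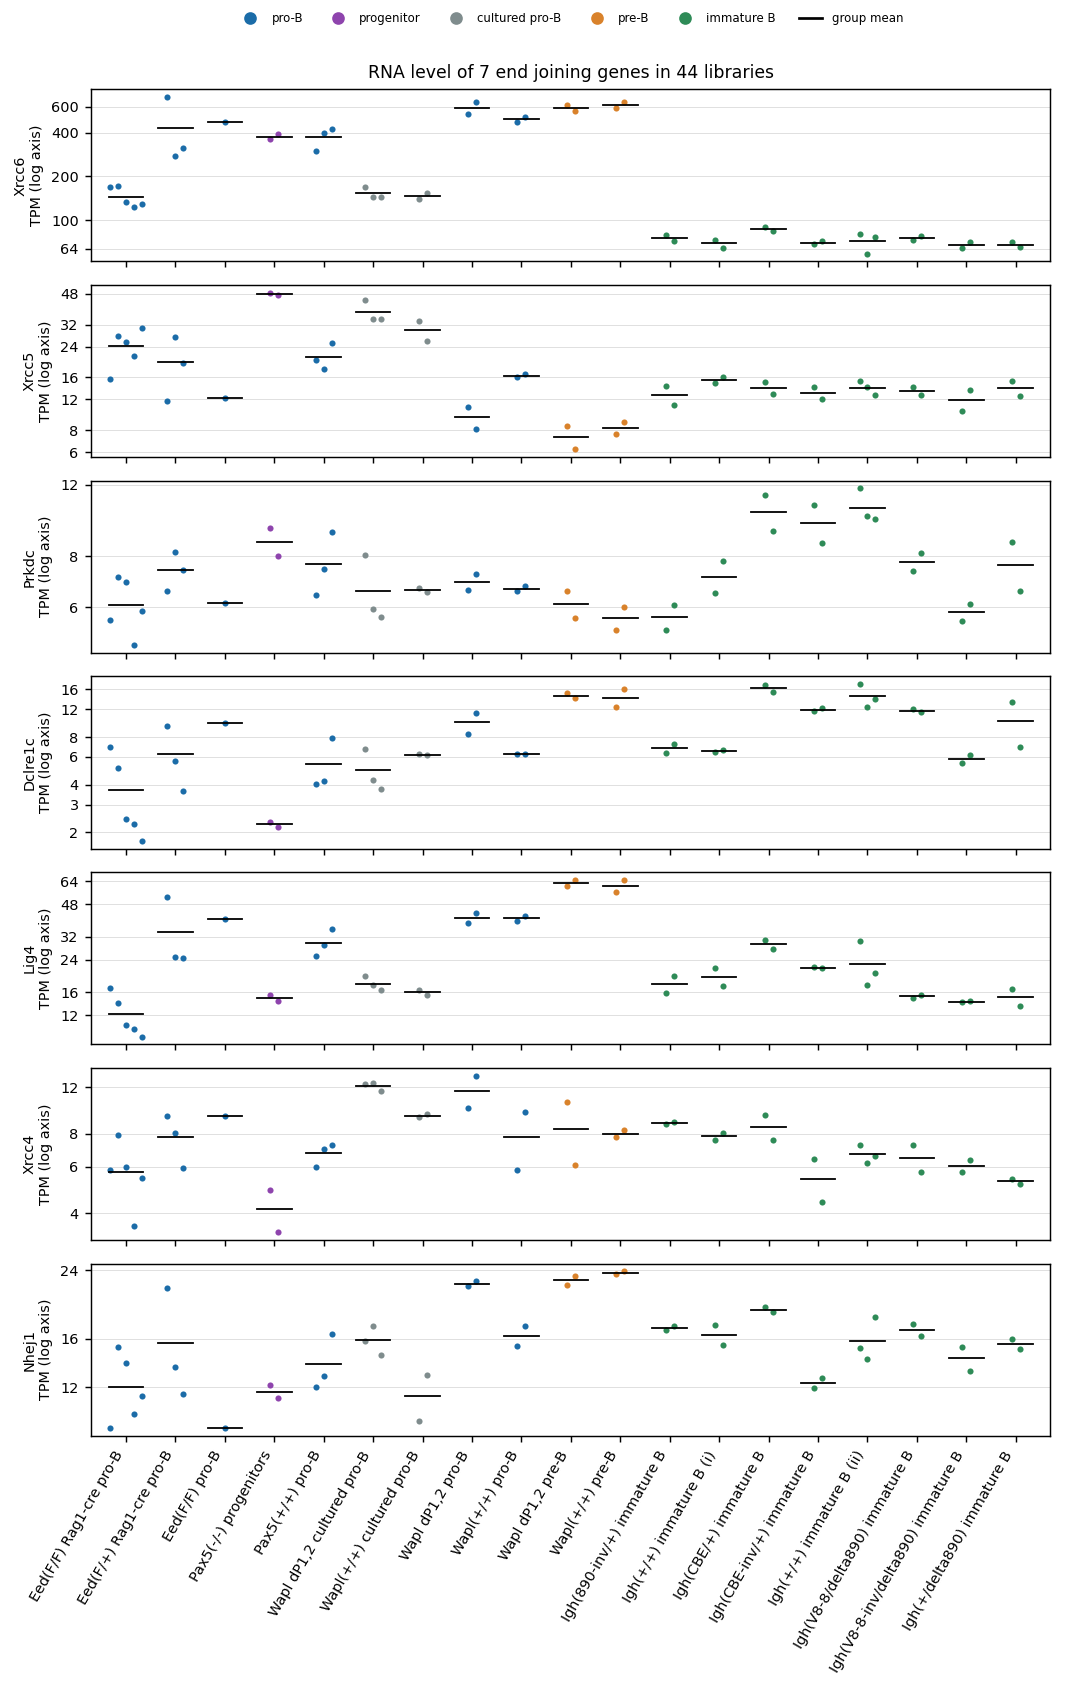
TPM of the 7 end-joining genes in each of the 44 libraries, on log axes, with libraries in their groups and each genotype left of its control. Points are libraries and bars are group means. Xrcc6 spans 59.3 to 701 TPM, with every immature B library at or below 89.9 TPM, and Prkdc stays between 4.84 and 11.7 TPM.

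Ordered by group mean, Xrcc6 was highest in sorted pre-B and pro-B cells and lowest in immature B cells. Wild-type pre-B, deltaP1,2 pre-B and deltaP1,2 pro-B cells averaged 617.5, 593 and 591 TPM and overlapped in their libraries. Next came wild-type Wapl pro-B cells at 492 TPM, both kinds of Eed control, and Pax5(-/-) progenitors at 374.4 TPM beside Pax5(+/+) pro-B cells at 374.0 TPM, each overlapping its neighbour in this order. DeltaP1,2 cultured pro-B cells (153 TPM), wild-type cultured pro-B cells (147 TPM) and Eed(F/F) Rag1-cre pro-B cells (146 TPM) overlapped each other and stood apart from the groups above. All 17 immature B libraries lay lowest, at 59.3 to 89.9 TPM.

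For Xrcc5 the order was different. Pax5(-/-) progenitors stood highest at 47.9 TPM, then deltaP1,2 cultured pro-B cells at 37.8 TPM and wild-type cultured pro-B cells at 29.7 TPM, and pre-B cells were lowest. Lig4 was highest in pre-B cells, at 62.8 TPM in the deltaP1,2 and 60.6 TPM in the wild-type group, and lowest in Eed(F/F) Rag1-cre pro-B cells at 12.1 TPM. Of the 18 pairs of neighbouring groups in each gene's order, 14 overlapped for Xrcc6, Dclre1c and Nhej1, 15 for Xrcc5, Lig4 and Xrcc4, and 18 for Prkdc.

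Pre-B cells were compared with pro-B cells in wild-type animals, in libraries of a single run of consecutive library numbers (called a library series here, since the labels say no more). Expression of 4 of the 7 genes rose, that of 1 fell and the other 2 did not pass the test, where 57.7% of the 12465 genes tested were called (limma on log2(TPM + 1), Benjamini-Hochberg adjusted p under 0.05), 23.8% higher and 33.8% lower. The median log2 difference was 0.33 for the 7 genes and −0.08 for all genes tested. A count of 5 in 7 lies near that background share.

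At the DNA-end step, the Ku subunits moved in opposite directions. Xrcc6 measured 592 and 643 TPM in pre-B cells, against 471 and 514 TPM in pro-B cells. The groups did not overlap, and the log2 difference was 0.33 ± 0.11 (SE, n = 2 each, adjusted p = 0.0338). Xrcc5 measured 7.58 and 8.89 TPM in pre-B cells, against 16.1 and 16.7 TPM in pro-B cells. Both pre-B libraries were well below both pro-B libraries, a fall of 1.89-fold (log2 difference −0.92 ± 0.177, adjusted p = 0.00278). The Xrcc6 call was lost when any 1 of the 4 wild-type libraries was left out (adjusted p 0.0663 to 0.173), and with no filter on low genes (0.0637).

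Dclre1c, which opens the hairpin ends made by the recombinase, measured 12.4 and 16.0 TPM in pre-B cells, against 6.28 and 6.22 TPM in pro-B cells. It was the gene of the 7 with the greatest rise at this step, with a log2 difference of 1.06 ± 0.166, or 2.08-fold (adjusted p = 0.000938). Prkdc, whose kinase activates Artemis, measured 5.26 and 6.01 TPM in pre-B cells, against 6.56 and 6.75 TPM in pro-B cells. Its groups did not overlap, but the change was not called (95% interval −0.51 to 0.09, adjusted p = 0.201).

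Of the ligation genes, Lig4 measured 56.3 and 65.0 TPM in pre-B cells, against 39.1 and 41.5 TPM in pro-B cells (log2 difference 0.57 ± 0.102, adjusted p = 0.00182). Nhej1 measured 23.5 and 23.8 TPM in pre-B cells, against 15.3 and 17.3 TPM in pro-B cells (0.51 ± 0.0936, adjusted p = 0.00209). Both genes were higher in each pre-B library than in either pro-B library. Xrcc4, the partner of Lig4, measured 7.79 and 8.25 TPM in pre-B cells, against 5.84 and 9.70 TPM in pro-B cells. Its groups overlapped, and the interval of the difference was −0.58 to 0.72.

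Genes that share exons with a neighbour need care, because the sources used here do not say whether strand was used in counting. By the gencode annotation of the mm9 build, 7.69% of the exon bases of Xrcc6 overlap Desi1 on the opposite strand. Desi1 measured 253 to 263 TPM in pre-B cells, against 167 to 167 TPM in pro-B cells, and was called higher (log2 difference 0.63, adjusted p = 0.000139). Dclre1c shares 3.83% of its exon bases with Suv39h2, which was called lower in pre-B cells (−0.74, adjusted p = 0.00204), and Xrcc4 shares 2.66% with Tmem167. Xrcc5, Prkdc, Lig4 and Nhej1 share none. The part of these overlaps in the values was not tested.

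Related repair genes moved in both directions. Of 11 tested accessory end-joining genes, 3 rose and 2 fell, with a median of −0.08. Polm, the polymerase that fills gaps at light-chain joins, measured 413 and 365 TPM in pre-B cells, against 21.4 and 15.8 TPM in pro-B cells (log2 difference 4.32 ± 0.16, adjusted p = 7.27e-07). Poll, a related polymerase, measured 6.29 and 7.75 TPM in pre-B cells, against 39.7 and 40.7 TPM in pro-B cells (−2.37 ± 0.108, adjusted p = 1.75e-06). These polymerases changed in opposite directions, each by more than any core gene.

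In the other break-repair lists more genes fell than rose, which is set against 33.8% of all genes called lower. Of 14 tested genes of break signalling and end protection, 1 rose (Shld1, 1.08) and 9 fell (median −0.47), among them Nbn, a subunit of the break-sensing Mre11 complex, with −1.36 and the ubiquitin ligase gene Rnf168 with −1.16. Of 14 homologous recombination genes, none rose and 12 fell (median −0.86), including the resection nuclease genes Dna2 with −1.77 and Exo1 with −1.44. Of 6 alternative end-joining genes 2 fell, Parp1 with −0.77 and Rbbp8 with −0.43, a share near that of all genes. Of the 18 cell-cycle genes 9 fell and none rose, and their summed level was 2687 to 2945 TPM in pre-B cells, against 4836 to 5063 TPM in pro-B cells.

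Within the V(D)J recombinase list of 5, Rag1 rose (0.55) while Dntt fell by 8.54, Rag2 by 0.74 and Hmgb1 by 0.59 on the log2 scale. Markers of other cells also moved. Erythroid markers summed to 557 to 639 TPM in pre-B cells, against 186 to 231 TPM in pro-B cells, with 4 of 4 called higher. Markers of T and innate lymphoid cells summed to 24.6 to 28.2 TPM in pre-B cells, against 122 to 125 TPM in pro-B cells, with 1 of 8 called higher and 3 lower. Myeloid markers summed to 1393 to 2408 TPM in pre-B cells, against 1214 to 2446 TPM in pro-B cells, so their sums overlapped, but 5 of 9 were called higher and none lower (median 0.68). Their part in the 7 genes' values was not tested.

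**Figure D2:**
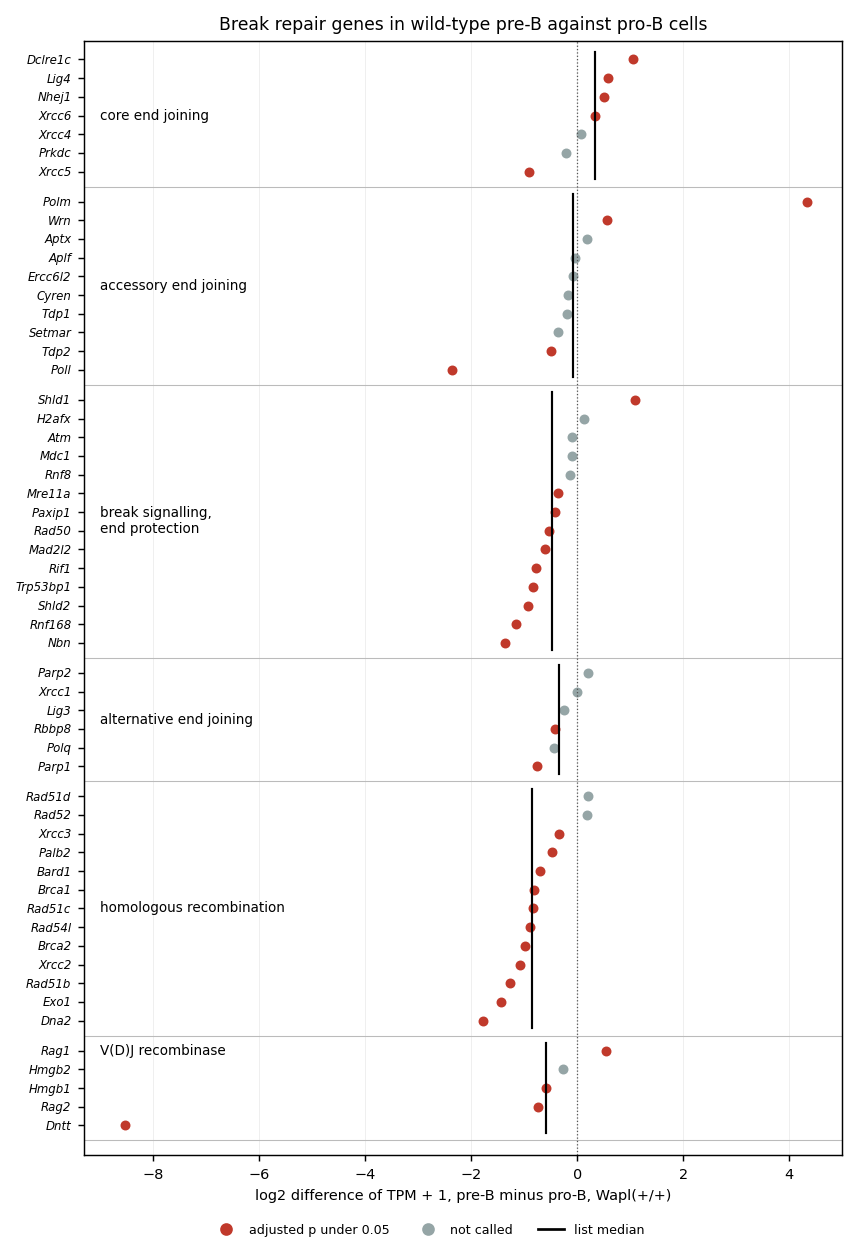
Log2 difference of genes of 6 repair and recombination lists, wild-type pre-B minus pro-B cells, on the log2(TPM + 1) scale, with red points for genes that passed the test, grey for the others and vertical lines for medians over all tested genes of a list, some of which are not drawn. The core end-joining median is 0.33 and the homologous recombination median is −0.86.

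Wild-type immature B cells (n = 5, from 2 library series) were compared with wild-type pre-B cells (n = 2) to follow the same genes to a stage at which recombination is ending. Stage and library series cannot be told apart in this comparison. Of the 7 genes 1 rose and 3 fell, where 35.8% of the 12027 genes tested were called (14.4% higher and 21.5% lower), and the median was −0.39 for the 7 and −0.10 for all genes. Xrcc6 measured 74.0, 65.3, 80.6, 59.3 and 76.8 TPM in immature B cells, against 592 and 643 TPM in pre-B cells. No library came near the other group, and the level was 8.61-fold lower in immature B cells (log2 difference −3.11 ± 0.129, adjusted p = 2.98e-06). Desi1, which overlaps Xrcc6, was also lower (−2.16, adjusted p = 4.37e-06).

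Lig4 measured 21.6, 17.3, 30.4, 17.4 and 20.4 TPM in immature B cells, against 56.3 and 65.0 TPM in pre-B cells. Each immature B library was below both pre-B libraries, by 2.80-fold on average (−1.48 ± 0.209, adjusted p = 0.000911). Nhej1 fell by 0.54 on the log2 scale (adjusted p = 0.0106), a call lost when either pre-B library was left out. Xrcc5 went the other way, with 14.8, 16.0, 15.3, 14.04 and 12.7 TPM in immature B cells, against 7.58 and 8.89 TPM in pre-B cells (0.75 ± 0.13, adjusted p = 0.00264). Every immature B library exceeded both pre-B libraries.

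Dclre1c differed between the library series of immature cells. It measured 6.43 and 6.61 TPM in the first series and 17.3, 12.3 and 13.9 TPM in the second, against 12.4 and 16.0 TPM in pre-B cells. Over all 5 libraries it was not called (−0.39, adjusted p = 0.458), whereas the first series alone gave −1.01 (adjusted p = 0.00207). Prkdc (0.59, adjusted p = 0.0597) and Xrcc4 (−0.15, adjusted p = 0.433) were not called. With the second immature series alone Prkdc was called higher (0.80, adjusted p = 0.0026). Among related genes, 4 of 5 in the recombinase list were called lower, with Rag1 at −5.61 and Rag2 at −4.11, 7 of 13 homologous recombination genes were lower, and 18 of 18 cell-cycle genes were lower. Myeloid markers summed to 941 to 3289 TPM in these immature B cells, against 1393 to 2408 TPM in pre-B cells, with 2 of 9 called lower. Erythroid markers summed to 258 to 478 TPM, against 557 to 639 TPM, with 3 of 4 called lower (median −0.72). Their part in these values was not tested.

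Over all 44 libraries, the ratio of Xrcc6 to Xrcc5 TPM spanned 3.83 to 90.7. It was 29.2 and 30.8 in wild-type sorted pro-B cells, 78.1 and 72.3 in wild-type pre-B cells, and 4.08 to 6.58 in the 17 immature B libraries. The products act as a heterodimer, and these ratios describe RNA only. The ratio of Xrcc6 to Lig4 was steadier between pro-B and pre-B cells, at 12.1 and 12.4 in wild-type pro-B cells and 10.5 and 9.90 in wild-type pre-B cells.

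**Figure D3:**
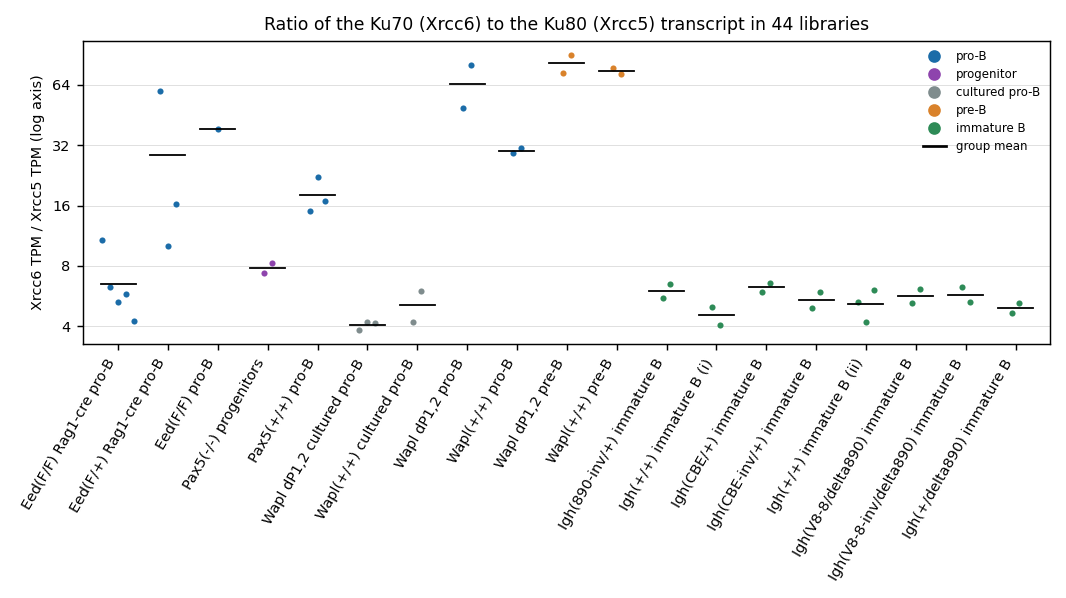
Ratio of Xrcc6 to Xrcc5 TPM in each library, on a log axis, by group, with each genotype left of its control. Wild-type pre-B cells lie at 72.3 and 78.1, cultured pro-B cells between 3.83 and 5.99, and the 17 immature B libraries between 4.08 and 6.58.

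Cultured wild-type pro-B cells were next set against sorted wild-type pro-B cells (n = 2 each), where culture and library series cannot be told apart. Eif2s3y, which is Y-linked, was at 0.64 and 0.28 TPM in cultured cells, against 5.75 and 17.1 TPM in sorted cells, so sex cannot be told apart from culture either. Of the 7 genes 1 was called higher and 3 lower, where 61.2% of 12899 genes were called (32.8% higher and 28.4% lower). Xrcc6 measured 141 and 154 TPM in cultured cells, against 471 and 514 TPM in sorted cells, 3.32-fold lower (log2 difference −1.73 ± 0.0975, adjusted p = 1.09e-05). Lig4 measured 16.5 and 15.6 TPM in cultured cells, against 39.1 and 41.5 TPM in sorted cells, 2.43-fold lower (−1.28 ± 0.114, adjusted p = 9.68e-05). Xrcc5 measured 33.6 and 25.7 TPM in cultured cells, against 16.1 and 16.7 TPM in sorted cells, 1.75-fold higher (0.81 ± 0.153, adjusted p = 0.00335). None of these groups overlapped. Neither did those of Dclre1c, at 6.191 and 6.218 TPM in cultured cells, against 6.224 and 6.282 TPM in sorted cells, though it was not called. The share of all genes so separated was not counted, so no weight is put on this.

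Nhej1 fell by 0.49 in cultured cells (adjusted p = 0.0362), and Prkdc and Dclre1c both differed by −0.01 without passing the test. The Xrcc5 and Nhej1 calls were lost when either sorted wild-type library was left out, and the Nhej1 call also without cultured wild-type library 1 and with no filter (adjusted p = 0.0803). Desi1 was lower in cultured cells (−0.58, adjusted p = 0.00103). In the recombinase list 4 of 5 genes were called lower (Dntt −3.22, Rag1 −2.74), while 7 of 10 p53 target genes were called higher, among them Phlda3 with 2.83. All 9 tested myeloid and all 4 tested erythroid markers were called lower in cultured cells. So were all 8 pro-B markers (median −0.87) and 4 of 5 tested pre-B markers (median −1.90). Of 4 tested immature B markers 2 were called higher and 1 lower. The part of any of these in the end-joining values was not tested.

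The deltaP1,2 genotype was checked first by the level of Wapl itself. Wapl measured 30.9 and 31.7 TPM in deltaP1,2 pro-B cells, against 10.4 and 10.999 TPM in wild-type cells of that stage (log2 difference 1.47, adjusted p = 0.000632). In pre-B cells it measured 47.8 and 45.7 TPM with deltaP1,2, against 9.32 and 12.9 TPM in the wild type. In culture it measured 52.8, 30.9 and 30.9 TPM with deltaP1,2, against 12.2 and 7.41 TPM in the wild type. Wapl was higher in every deltaP1,2 library than in any wild-type library of the same stage.

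In sorted pro-B cells, 1 of the 7 end-joining genes was called higher and 1 lower in deltaP1,2 cells, where 17.3% of 12465 genes were called (7.65% higher and 9.63% lower). Nhej1 measured 21.9 and 22.5 TPM in deltaP1,2 cells, against 15.3 and 17.3 TPM in wild-type cells (log2 difference 0.42 ± 0.0936, adjusted p = 0.0196). Xrcc5 measured 10.8 and 8.10 TPM in deltaP1,2 cells, against 16.1 and 16.7 TPM in wild-type cells (−0.74 ± 0.177, adjusted p = 0.0261). For both genes the groups did not overlap. The Nhej1 call was lost without any 1 of the 4 libraries (adjusted p 0.0503 to 0.130), and the Xrcc5 call without wild-type library 1, wild-type library 2 or deltaP1,2 library 2 (0.120 to 0.167), or with no filter (0.0571).

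Dclre1c lay at the threshold, with 8.42 and 11.4 TPM in deltaP1,2 pro-B cells, against 6.28 and 6.22 TPM in wild-type pro-B libraries (0.57 ± 0.166, adjusted p = 0.051). Xrcc6 measured 533 and 649 TPM in deltaP1,2 cells, against 471 and 514 TPM in wild-type cells (0.26 ± 0.11, adjusted p = 0.152). Xrcc4 measured 10.05 and 13.3 TPM in deltaP1,2 cells, against 5.84 and 9.70 TPM in wild-type cells (0.55 ± 0.28, adjusted p = 0.22). None of these 3 genes passed the test. Their libraries did not overlap between genotypes, but the share of all genes so separated was not counted, so no weight is put on this. Lig4 (37.8 and 42.8 TPM, against 39.1 and 41.5 TPM) and Prkdc (6.61 and 7.26 TPM, against 6.56 and 6.75 TPM) overlapped.

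Other lists moved beside these genes. Rag1 measured 626 and 829 TPM in deltaP1,2 pro-B cells, against 349.5 and 449.8 TPM in wild-type ones (log2 difference 0.86 ± 0.179, adjusted p = 0.0156). All 5 tested pre-B markers were called higher, while 4 of 5 immature B markers were called lower and none higher (median −1.13). The pre-B list holds Rag1 itself and Rag2, which was lower in wild-type pre-B than pro-B cells. Of 8 pro-B markers 3 were called higher and 1 lower (median 0.38). Of 9 p53 target genes 4 were called higher and none lower. Desi1 was also called higher (0.48, adjusted p = 0.00345). None of the 6 alternative end-joining or 14 homologous recombination genes was called. Of the accessory genes 1 was called higher and 1, Tdp2, lower (−0.34).

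Summed markers of some other cells differed with genotype too, which does not show whether cell numbers changed. Erythroid markers summed to 325 to 504 TPM in deltaP1,2 pro-B cells, against 186 to 231 TPM in wild-type pro-B cells. Of 4 tested, 2 were called higher. T and innate lymphoid markers summed to 59.0 to 59.9 TPM, against 122 to 125 TPM, with 1 of 8 called lower. Of 9 myeloid markers 1 was called higher (median 0.05). The part of these markers in the end-joining values was not tested. Eif2s3y was at 0.00 TPM in both deltaP1,2 pro-B libraries, against 5.75 and 17.1 TPM in the wild-type ones, and at 0.07 and 0.00 TPM in deltaP1,2 pre-B libraries, against 10.8 and 28.9 TPM. Sex and genotype therefore cannot be told apart in the sorted Wapl libraries.

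**Figure D4:**
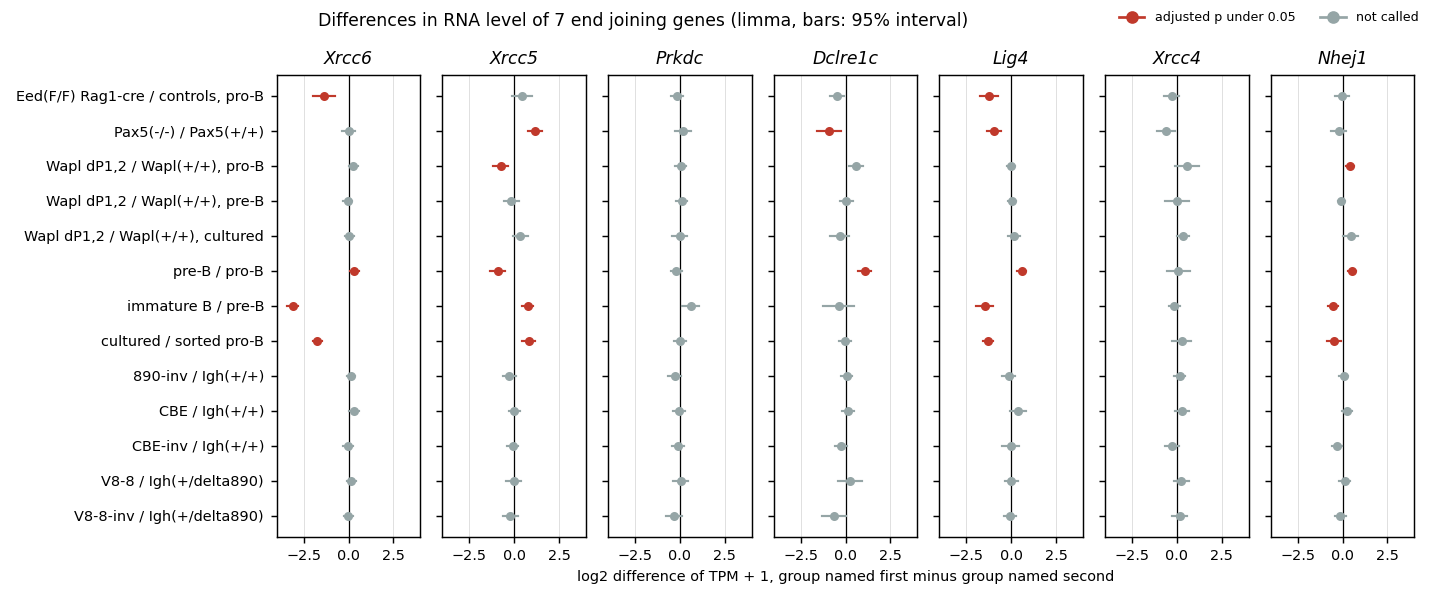
Log2 difference of each end-joining gene in each comparison, the first-named group minus its control, on the log2(TPM + 1) scale, with 95% intervals. Red points passed the test and grey points did not. Xrcc6 reaches −3.11 in immature against pre-B cells and Xrcc5 reaches 1.17 in Pax5(-/-) progenitors.

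In sorted pre-B cells, 0 of the 7 genes were called between deltaP1,2 and wild-type cells (limma, 3.02% of 12465 genes called), and 0 of the 7 had an unadjusted p under 0.05 (15.7% of all genes). All 7 differences lay between −0.16 and 0.10 on the log2 scale. Xrcc5 measured 8.45 and 6.22 TPM in deltaP1,2 pre-B cells, against 7.58 and 8.89 TPM in wild-type pre-B cells, with a 95% interval of −0.57 to 0.25. Nhej1 measured 22.0 and 23.2 TPM, against 23.5 and 23.8 TPM.

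The difference between the effects at the 2 stages was tested directly, pre-B minus pro-B. It was called for 0 of 7 genes (3.35% of all genes called), and 2 of the 7 had an unadjusted p under 0.05 (17.8% of all genes). These were Nhej1 (−0.48 ± 0.132, adjusted p = 0.101) and Xrcc5 (0.59, adjusted p = 0.274).

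Cultured deltaP1,2 pro-B cells gave 0 of 7 calls against cultured wild-type cells, where 21.7% of 12457 genes were called, and 1 of 7 (Nhej1) had an unadjusted p under 0.05 (37.2% of all genes). Nhej1 measured 15.8, 17.2 and 14.5 TPM in deltaP1,2 cells, against 9.86 and 12.9 TPM in wild-type cells (0.45 ± 0.173, adjusted p = 0.0981). Xrcc5 measured 44.1, 34.6 and 34.7 TPM, against 33.6 and 25.7 TPM (0.34 ± 0.172, adjusted p = 0.186). Both genes were higher in all 3 deltaP1,2 libraries than in either wild-type library. The same held for Lig4 and Xrcc4, which were not called either, and the share of all genes so separated was not counted. By Eif2s3y, sex was not balanced between these genotypes (values are given below). Rescaling by median-of-ratios size factors shifted the median of all genes by 0.17 in this comparison, and 3 genes were then called, Nhej1 with 0.62, Xrcc5 with 0.52 and Xrcc4 with 0.50.

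Pax5(-/-) progenitors, which are arrested before commitment to the B lineage, were compared with Pax5(+/+) pro-B cells. Pax5 RNA measured 43.0 and 39.1 TPM in the progenitors, against 342, 386 and 391 TPM in pro-B cells (log2 difference −3.15). Of the 7 end-joining genes 1 rose and 2 fell, with 36.9% of the 12023 genes tested called (15.5% higher, 21.4% lower). The median was −0.20 for the 7 and −0.11 for all genes tested.

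Xrcc5 measured 48.7 and 47.0 TPM in Pax5(-/-) progenitors, against 20.1, 17.8 and 25.0 TPM in pro-B cells. These were the 2 highest Xrcc5 values of all 44 libraries, a rise of 2.24-fold (log2 difference 1.17 ± 0.161, adjusted p = 0.0015). Xrcc6 measured 359.8 and 389 TPM in progenitors, against 301, 398 and 423 TPM in pro-B cells, so its groups overlapped (95% interval −0.34 to 0.37). The Xrcc6 to Xrcc5 ratio was 7.38 and 8.27 in progenitors, against a mean of 18.1 and a highest value of 22.3 in the 3 pro-B libraries.

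Lig4 measured 15.5 and 14.4 TPM in progenitors, against 25.2, 28.8 and 35.4 TPM in pro-B cells, 1.91-fold lower (−0.94 ± 0.169, adjusted p = 0.00472). Dclre1c measured 2.33 and 2.17 TPM, against 4.07, 4.21 and 7.91 TPM, 1.90-fold lower (−0.92 ± 0.28, adjusted p = 0.036). Xrcc4 measured 4.88 and 3.39 TPM, against 5.97, 6.98 and 7.28 TPM, and did not pass the test (−0.60 ± 0.205, adjusted p = 0.0534). Each progenitor library was below all 3 pro-B libraries for these 3 genes, though the share of all genes so separated was not counted. Prkdc and Nhej1 were not called (0.17 and −0.20).

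With either progenitor library left out, the Lig4 and Dclre1c calls were lost (adjusted p 0.0593 to 0.229), and with no filter so was the Dclre1c call (0.0867). Of the related genes, Polm was listed at 0 and at 0.0841 TPM in progenitors, against 6.02, 4.71 and 11.003 TPM in pro-B cells, and Poll measured 72.2 and 71.6 TPM, against 42.4, 44.6 and 48.2 TPM. Of 6 alternative end-joining genes 1 was called higher in progenitors and 3 lower (median −0.44). The higher one was Parp1 (1.98), and its partner Xrcc1 was lower (−1.07). In the recombinase list 4 of 5 genes were called lower, including Rag2 (−1.54). Cell-cycle genes were lower for 12 of 18 and summed to 3680 to 4156 TPM in progenitors, against 5156 to 5784 TPM in pro-B cells. Pro-B markers summed to 3228 to 3623 TPM, against 11466 to 14116 TPM, and plasma cell markers to 651 to 816 TPM, against 200.8 to 246 TPM, with 1 of 4 tested called higher and 2 lower. Erythroid markers summed to 8.00 to 59.4 TPM, against 73.5 to 186 TPM, with 3 of 4 called lower (median −2.21). Myeloid markers summed to 72.1 to 106 TPM, against 52.7 to 269.7 TPM, with 1 of 9 called higher and 2 lower (median −1.13). The part of any of these in the end-joining values was not tested.

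Pro-B cells labelled Eed(F/F) Rag1-cre were compared with both kinds of control together, with a term for library series. Eed encodes a core subunit of Polycomb repressive complex 2. Its whole-gene value was 222, 132, 123, 126 and 126 TPM in the mutant-labelled cells, against 58.4, 104 and 94.3 TPM in Eed(F/+) Rag1-cre cells and 122 TPM in Eed(F/F) cells without Cre. A whole-gene value cannot show deletion of single exons, so it is no check of the labels. Of the 7 end-joining genes 2 fell and none rose, where 21.8% of 12338 genes were called (12.6% higher and 9.17% lower).

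Xrcc6 measured 169, 172, 134, 123 and 130.2 TPM in Eed(F/F) Rag1-cre cells, against 701, 275 and 315 TPM in Eed(F/+) Rag1-cre cells and 472 TPM in cells without Cre. Every mutant-labelled library was below every control. In the limma fit with the library-series term the level was 2.56-fold lower (log2 difference −1.35 ± 0.263, adjusted p = 0.00987). Lig4 measured 16.9, 13.9, 10.6, 10.1 and 9.19 TPM, against 52.7, 24.8 and 24.7 TPM and, without Cre, 39.9 TPM. Here too the groups did not overlap, and the same fit gave a 2.38-fold lower level (−1.25 ± 0.217, adjusted p = 0.00576). Desi1 was also lower (−0.52, adjusted p = 0.0313).

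One control library, Eed(F/+) Rag1-cre library 1, had a cell-cycle sum of 1976 TPM, the lowest of the 9. Its value of the proliferation gene Mki67 was 91.0 TPM, close to the lowest Eed(F/F) Rag1-cre library at 92.7 TPM. Its Rag1 value of 412 TPM was near that of the control without Cre. Without Eed(F/+) Rag1-cre library 1 the differences were −1.162 for Xrcc6 (adjusted p = 0.000234) and −1.09 for Lig4 (adjusted p = 0.000123). Within the last library series alone they were −1.28 (adjusted p = 0.00636) and −1.23 (adjusted p = 0.0129). The Xrcc6 call was lost without Eed(F/F) Rag1-cre library 1 or 2, Eed(F/+) Rag1-cre library 3 or the library without Cre (adjusted p 0.0531 to 0.0657), and the Lig4 call without Eed(F/F) Rag1-cre library 2 (0.0504).

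The other 5 genes were not called. Dclre1c measured 6.90, 5.07, 2.44, 2.26 and 1.77 TPM in Eed(F/F) Rag1-cre cells, against 9.42, 5.65, 3.65 and, without Cre, 9.80 TPM, and the groups overlapped (−0.50 ± 0.167, adjusted p = 0.0723). It was called lower without Eed(F/+) Rag1-cre library 1 (−0.41, adjusted p = 0.0388) or library 2 (−0.59, adjusted p = 0.0132). Xrcc5 gave 0.43 ± 0.251 (adjusted p = 0.248, and 0.049 without Eed(F/+) Rag1-cre library 2), Xrcc4 −0.29, Prkdc −0.16 and Nhej1 −0.05. The Xrcc6 to Xrcc5 ratio was 4.27 to 10.8 in mutant-labelled cells, against 10.1 to 59.4 in the 4 controls.

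In the same comparison 7 of 9 p53 target genes rose and none fell (median 1.61), including the apoptosis gene Bbc3 with 3.02, Phlda3 with 2.99 and Zmat3 with 2.97. None of the homologous recombination or alternative end-joining genes was called, and of the 18 cell-cycle genes none was called. In the recombinase list Dntt (−1.39) and Rag2 (−1.09) fell. Rag1 measured 91.7, 58.4, 88.4, 63.4 and 35.3 TPM in Eed(F/F) Rag1-cre cells, against 412, 69.0 and 120.2 TPM in Eed(F/+) Rag1-cre cells and 429 TPM without Cre, and was not called. The control without Cre may not be comparable for this gene, since Cre may sit at Rag1. Of 4 tested T and innate lymphoid markers 3 were higher and 1 lower.

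The Igh alleles of immature B cells left the 7 genes without a call by limma in all 5 comparisons. For Igh(890-inv/+) against Igh(+/+) cells 0 of 7 were called (0.544% of 11405 genes called). For Igh(CBE/+) it was 0 of 7 (0.00834% of 11987) and for Igh(CBE-inv/+) 0 of 7 (0.0834%). For Igh(V8-8/delta890) against Igh(+/delta890) it was 0 of 7 (0.235% of 11895) and for Igh(V8-8-inv/delta890) 0 of 7 (0.219%). At an unadjusted p under 0.05 there was 1 gene over these 5 comparisons, Nhej1 in Igh(CBE-inv/+) cells, where the shares of all genes were 5.41%, 2.45%, 2.49%, 1.85% and 6.08% in the order given.

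Nhej1 measured 12.0 and 12.7 TPM in Igh(CBE-inv/+) cells, against 15.1, 14.2 and 18.1 TPM in Igh(+/+) cells (log2 difference −0.33, unadjusted p = 0.0285). Dclre1c measured 5.49 and 6.21 TPM in Igh(V8-8-inv/delta890) cells, against 13.4 and 6.97 TPM in Igh(+/delta890) cells (−0.64, unadjusted p = 0.0553). For both genes each library with the altered allele lay below every control, and the 2 Dclre1c controls were themselves far apart. Other end-joining genes were separated too without a call. For example, Xrcc4 was higher in each Igh(890-inv/+) library than in either control, and Prkdc was lower. Xrcc6, Xrcc4 and Nhej1 were higher in each Igh(CBE/+) library than in any control. The share of all genes so separated was not counted, so no weight is put on this. Xrcc6 measured 64.6 and 70.9 TPM in Igh(V8-8-inv/delta890) cells, against 70.8 and 65.9 TPM, and 79.3 and 72.3 TPM in Igh(890-inv/+) cells, against 74.0 and 65.3 TPM in Igh(+/+) cells. Both pairs overlapped.

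Across the 44 libraries, with the mean of each of the 9 library series taken away, Xrcc6 and Lig4 varied together (Pearson r = 0.82), as did Dclre1c and Lig4 (r = 0.73). Xrcc5 ran against both, with r = −0.41 to Xrcc6 and r = −0.61 to Lig4. The recombinase gene Rag1 gave r = 0.85 with Xrcc6, 0.80 with Lig4 and −0.57 with Xrcc5. The Rag1-cre libraries, where Cre may sit at Rag1, are among those used. These values describe libraries that share stage and genotype groups, and no test was made.

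Among the 9900 genes with a mean of 5 TPM or more, those most like each member in this measure were as follows. For Xrcc6 they were Pde4b (r = 0.862), Pik3cg (0.861) and Rag1 (0.855), and for Lig4 Slc25a51 (0.940), Abi1 (0.925) and Mbnl1 (0.917). For Xrcc5 they were Wdr12 (0.904), Bcap29 (0.901) and Pecr (0.892). Dclre1c was closest to Zufsp (0.945), Sdccag3 (0.931) and Napg (0.929), and Prkdc to Akap11 (0.889), Ercc6l2 (0.828) and Atr (0.815). The values were lower for Xrcc4, closest to Pot1a (0.738), Zfp110 (0.735) and Tiprl (0.734), and for Nhej1, closest to Supt4a (0.756), Mat2b (0.702) and Iqcb1 (0.701).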

How the data were processed

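RNA-seq libraries were prepared with a standard Illumina protocol, per the labels' protocols. The authors deposited 1 table of TPM values per library. The deposited columns of 11 libraries, recorded as signal because their header is a bare number, also sum to 1000000 and were treated as TPM. The submitters' processing notes name mm9, mm10, featureCounts 1.5.0 and DESeq2 2.1.14.1 without their roles. For RNA, the aligner and strand setting: not given in the sources used here. TPM keeps no depth, so depth is unknown and no interval for counting error is given.

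Levels, ratios and correlations were taken from the 24643 gene entries shared by the 44 libraries. Tests used the entries with a value in every library of a fit. A suffix such as that of Dclre1c was removed to match gene names. No 2 libraries were identical (0 pairs). The limma package (3.58.1, R 4.3.3) was run per comparison, with a trended prior, on log2(TPM + 1), over genes reaching 1 TPM in at least the number of libraries in the smaller group. All 7 genes passed in every comparison. Tests were two-sided, adjusted by Benjamini-Hochberg over all genes tested with a threshold of 0.05, and tested on simulated data. Fold changes are on the log2(TPM + 1) scale, which understates changes of low genes. Where groups are said not to overlap, the share of all genes so separated was not counted. The 4 sorted Wapl groups shared 1 fit, as did the groups of each immature B library series. The Eed fit had a library-series term.

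Beside the 7 genes, up to 4 called genes with the greatest change in a described list were named, with the targeted gene, and the 3 genes most like each member. Other genes (Desi1, Suv39h2, Tmem167, Eif2s3y, Mki67) were chosen after their values were seen. Cell-type lists were matched by symbol or RefSeq synonym. The members and lists were chosen with earlier results of these data known. Alternatives were another pseudocount (0.1), no filter, median-of-ratios scaling, a fixed total over shared entries, other groups in the fit and leaving out each library. Some genes of the lists are not reported here by name, though they are in the counts and medians. ChIP, ATAC, Hi-C, 3C and V(D)J files were not used here.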

Additional observations from a re-analysis of the deposited data

Results flagged for a closer look

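Xrcc5 differed between deltaP1,2 and wild-type cells by 0.34 on the log2 scale in cultured pro-B cells, which was not called (adjusted p = 0.186), and by −0.74 in sorted pro-B cells, which was (adjusted p = 0.0261). It measured 44.1, 34.6 and 34.7 TPM in cultured deltaP1,2 cells, against 33.6 and 25.7 TPM in cultured wild-type cells, and 10.8 and 8.10 TPM in sorted deltaP1,2 cells, against 16.1 and 16.7 TPM in sorted wild-type cells. A test of the difference itself, added after the data were seen, gave 1.09 ± 0.252 on the log2 scale (cultured minus sorted, limma, adjusted p = 0.0178), and this difference between settings is why the gene is listed here. It was the 1 gene of 7 called, where 18.3% of 13249 genes were called. The call was lost without cultured wild-type library 2, sorted wild-type library 1 or 2, or sorted deltaP1,2 library 2. Dclre1c gave −0.89 in the same test (adjusted p = 0.0767). Library series goes with culture, and Eif2s3y was at 72.3, 71.4 and 0.19 TPM in cultured deltaP1,2 libraries, against 0.64 and 0.28 TPM in cultured wild-type cells, so its difference between genotypes ran the other way from that in sorted cells. The part of these in the difference was not tested. Each of the 7 genes was also checked for 1 library far from the rest in the 5 Eed(F/F) Rag1-cre libraries, the 4 Eed controls and the 5 wild-type immature B libraries, and none of these 21 checks found one by Dixon's criterion for these genes' TPM.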

How the results depend on the processing

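No direction of a called gene reversed. No paired analysis was possible because the labels carry no replicate numbers. The count of the 7 genes called changed from 2 to 1 for sorted deltaP1,2 pro-B cells with no filter (Xrcc5 lost, adjusted p = 0.0571). With no filter it also changed from 5 to 4 for pre-B against pro-B cells, from 3 to 2 for Pax5 and from 4 to 3 for culture. It changed from 0 to 3 for cultured deltaP1,2 cells with median-of-ratios scaling, from 2 to 1 for Eed with the first library series left out, and from 1 to 2 for the added difference between cultured and sorted cells with median-of-ratios scaling. Leaving out each library gave 0 to 2 calls for sorted deltaP1,2 pro-B cells, 0 to 1 for cultured deltaP1,2 cells, 1 to 4 for Pax5, 0 to 4 for Eed, 0 to 1 for Igh(V8-8-inv/delta890), 3 to 5 for immature against pre-B cells, 2 to 4 for culture, 0 to 2 for the added test and 4 to 4 for pre-B against pro-B cells. Of the single-gene values under all alternatives, 1003 stayed on their side of the threshold, 36 lost a call and 18 gained one. Prkdc in immature against pre-B cells (0.69, adjusted p = 0.0102), Dclre1c in sorted deltaP1,2 pro-B cells (0.57, adjusted p = 0.0366) and Xrcc4 in Pax5 progenitors (−0.52, adjusted p = 0.0482) were called with median-of-ratios scaling.

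Counts over all genes moved further. Leaving out 1 library gave 836 to 1550 calls for sorted deltaP1,2 pro-B cells (2153 with all), 180 to 456 for pre-B cells (376), 90 to 313 for the stage difference (418), 460 to 5985 for cultured cells (2703), 1379 to 5074 for Pax5 (4441), 1197 to 5154 for Eed (2691), 2477 to 4417 for immature against pre-B cells (4310), 4841 to 6546 for culture (7899), 910 to 4922 for the added test (2427), 0 to 20 for Igh(890-inv/+) (62), 0 to 0 for Igh(CBE/+) (1), 21 to 411 for Igh(V8-8/delta890) (28) and 20 to 1425 for Igh(V8-8-inv/delta890) (26). The pre-B count was 246 with the 2 groups alone, Eed gave 1467 with its first library series left out, immature against pre-B cells gave 6736 with the first immature series alone, and Igh(CBE/+) gave 9 with no filter. Median-of-ratios scaling turned the higher and lower calls into 1223 and 2046 for cultured cells (394 and 2309), 1779 and 687 for Eed (1559 and 1132) and 2285 and 2072 for immature against pre-B cells (1730 and 2580). The cause was not tested. TPM carries no depth, so no counting error could be given, and groups of 2 libraries let 1 library decide a call.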

Other observations

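The polymerases that fill gaps during end joining followed stage in opposite directions and differed with genotype. Poll, at 12.6 and 12.2 TPM in deltaP1,2 pre-B cells, against 6.29 and 7.75 TPM in wild-type pre-B cells, was called higher (log2 difference 0.75). In the same comparison 5 of 8 pro-B markers were called higher and none lower (median 0.88), and the part of this in the Poll value was not tested. Polm measured 380.0 and 391 TPM in deltaP1,2 pre-B cells, against 413 and 365 TPM in wild-type pre-B cells, and overlapped. In cultured pro-B cells Polm measured 7.91, 5.02 and 6.05 TPM with deltaP1,2, against 11.4 and 10.7 TPM in the wild type, and was called lower (−0.74).

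Dntt, the template-independent polymerase that adds bases at V(D)J joins, changed with deltaP1,2 in all 3 settings. It measured 19.7 and 23.6 TPM in deltaP1,2 pre-B cells, against 4.73 and 5.36 TPM in wild-type pre-B cells (called higher, 1.90), and Dntt is itself 1 of the 5 pro-B markers called higher there. In sorted pro-B cells it measured 1733 and 1707 TPM with deltaP1,2, against 2218 and 2268 TPM in the wild type (called lower, −0.38). In culture it measured 58.9, 96.8 and 69.6 TPM with deltaP1,2, against 228 and 252 TPM in the wild type (called lower, −1.69).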
